A study of Homo sapiens with 7 samples.

Results

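The sequences numbered 31001 to 56000 make up a large and mostly silent share of a reporter library measured in HepG2, a line derived from a human liver carcinoma. The assay was a massively parallel reporter assay with lentiviral delivery, in which test DNA of 170 nucleotides drives a reporter carrying a short transcribed barcode, and barcode RNA over barcode DNA gives the activity of the test DNA. Every sequence was cloned in a forward and a reverse orientation, cells were harvested 48 hours after infection, and RNA and integrated DNA were counted in 3 replicates each. No treatment or genotype was compared: the 3 RNA libraries are read against the 3 DNA libraries of the same cells, and all libraries share the same element pool and reporter. A plasmid library linked each barcode to its element, so that a copy, meaning a sequence in a given orientation, is known by its number and orientation.

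Members were taken by number alone, as all listed copies with numbers from 31001 to 56000. The range itself had been drawn on the RNA/DNA values of these same libraries, as a run of numbers with low activity in which neighbours resembled each other. Levels of activity, and the calls that edgeR makes of them, are therefore given as a description of the range and as support for nothing, while orientation differences, barcode numbers and DNA abundance were not used to choose the range. Of 25000 numbers, 24634 sequences (98.5%) were listed, with 49061 copies of the 135736 in the series. Both orientations were listed for 24427 sequences, 94 had only the forward and 113 only the reverse copy. A copy was analysed where each DNA library gave it at least 10 counts, which held for 48475 copies, or 36.1% of the 134435 analysed in the series, and left out 586. In 24053 sequences both copies passed. Just inside the limit, 38 copies had a lowest DNA count of 10 and a median log2 ratio of mean RNA to mean DNA CPM (library-scaled counts, each raised by 1 CPM) of -0.14. The 41 copies with a lowest count of 9 had a median of -0.16.

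A candidate enhancer or promoter raises transcription when transcription factors bind the short motifs it holds, and most genomic DNA cut to the length of a reporter element holds no combination of motifs that does so. Enhancers are known to act in either orientation, whereas promoters can favour transcription in a given direction. Where a library steps along a region in overlapping pieces, neighbouring pieces share bases and can share motifs. The numbers carry no coordinates, genes or element classes in the tables used here, so a number distance is a distance in the list and not in the genome.

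The libraries held 34860651 to 44258011 DNA counts and 108324310 to 114738370 RNA counts, and the median copy of the range had 233 to 300 DNA and 467 to 498 RNA counts. Barcodes numbered 1 to 432 per copy, with a median of 87. Fold changes came from edgeR over the whole table with TMM scaling, and 0 on that scale is the centre of the library and not an inactive control. Scaling by library totals alone lowered the median of all analysed copies by 0.43 on the log2 scale and that of the members by 0.43. Levels below are thus best read against the library's median. In the authors' deposited table, scaled by totals, the members' median log2 signal was -0.69.

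The members lay low in the library. Their log2 RNA/DNA had a median of -0.26 and quartiles of -0.51 and 0.06, whereas all analysed copies had a median of -0.04 and quartiles of -0.41 and 0.65. The upper end differed more than the middle: the 95th percentile was 0.92 in the range and 1.72 in the library. The 99th percentiles were 1.64 and 2.27. The median standard error of a copy was 0.125 and the median SD between replicates 0.147, so the quartiles of the range are several errors apart. Forward copies had a median of -0.15 and reverse copies of -0.39.

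Few members reached a 2-fold rise. A copy is called active here where its RNA/DNA was at least 2-fold above 0 on the TMM scale with an adjusted p under 0.05 in edgeR, and 2076 members (4.28%) met this, against 17.7% of the library. At least 4-fold were 184 members (0.38%, library 2.18%), and at least 8-fold were 21 (0.0433%, library 0.179%). Without a minimum fold, 7481 copies were called higher (15.4%, library 35.2%) and 22050 lower (45.5%, library 32.2%). Scaled by library totals, 807 members were at least 2-fold higher and 9507 at least 2-fold lower, and without a minimum fold 3658 were higher and 37626 lower, so the split of higher against lower calls depends on the scaling. The range's low calls are few under TMM: 312 copies (0.644%) were at least 2-fold lower, beside 0.488% of the library, and leaving out replicate 1 gave 715.

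A sequence is called active below where both of its copies were active, which 595 sequences (2.47%) were, against 13.6% in the library. Scaled by library totals, 197 were. Either copy was active in 1468 sequences (6.10%, library 21.8%), of which 523 were active only forward (2.17%, library 4.80%) and 350 only reverse (1.46%, library 3.34%). The 595 are 40.5% of the sequences active in either orientation. Calling each replicate by its own log2 ratio gave 458, 454 and 435 active sequences. Sequences with odd and even numbers were alike, with a median activity (the mean of both orientations) of -0.28 in each and 306 and 289 active.

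The range is not of one kind, and the description of neighbours as alike holds for only some of its numbers. Blocks of 100 numbers, set against each other after their values had been seen, fell into 5 stretches. Numbers 31001 to 31300 had a median activity of 0.36 and 60 active sequences of 285, close to the 2 blocks before them, which had medians of 0.26 and 0.20. Numbers 31301 to 32200 were the quietest: the median was -0.49, the upper quartile -0.30, and 1 of 820 sequences was active. Numbers 32201 to 32300 stood out from both sides with a median of 0.26 and 14 active of 91. The blocks were joined by these levels, so the differences between the stretches are part of how they were drawn. Per replicate the medians of the first 3 stretches were 0.31 ± 0.020, -0.395 ± 0.027 and 0.211 ± 0.009 (SD, n = 3).

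Numbers 32301 to 36100 and 36101 to 56000 had similar levels and unlike order. The former, called the unordered stretch here, had a median activity of -0.21 with 127 active of 3697 sequences (3.44%). The latter, the ordered stretch, had a median of -0.29 with 393 active of 19160 (2.05%). Forward and reverse copies of a sequence correlated in both, with Pearson's r of 0.730 in the unordered and 0.659 in the ordered stretch, given as descriptions. What separated them was how much a number told about the next.

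In the ordered stretch the activity of number N correlated with that of N + 1 at r = 0.509 over 18663 pairs (Spearman's rho 0.441). At distance 2 the correlation was 0.250, at distance 3 it was 0.096, at distance 4 it was 0.028, and at distances 5, 6, 8 and 10 it was 0.017, 0.024, 0.015 and 0.013. From distance 20 to 1000 it lay between -0.008 and 0.005. In the unordered stretch it was 0.049 at distance 1, over 3596 pairs, 0.048 at distance 2 and 0.005 at distance 4. Most of the likeness in the ordered stretch lay within 3 numbers, with small values up to distance 10. Per replicate the correlation at distance 1 was 0.479 ± 0.005 (SD, n = 3) in the ordered and 0.045 ± 0.004 in the unordered stretch. Between N in a given replicate and N + 1 in another it was 0.477. Over the whole range, stretches joined, the correlations at distances 1 to 4 were 0.421, 0.236, 0.122 and 0.069, and at distance 50 the value was still 0.040, over stretches that differ in level.

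The limit between the unordered and the ordered stretch was drawn on blocks of 100 numbers, so their values describe it and do not support it. The correlation at distance 1 had a median of 0.479 over the 199 blocks of the ordered stretch, with a lowest of 0.066 and a highest of 0.799, and was above 0.2 in 196 of them. Among the 38 blocks of the unordered stretch the median was 0.010, the highest 0.213, and 1 lay above 0.2. Blocks of 1000 numbers within the ordered stretch gave 0.429 to 0.601. Among numbers 30001 to 31000, just before the range, the value was -0.059, and among 56001 to 57000, just after it, 0.320.

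The likeness was also seen among silent sequences. Between neighbours that were both below 0 it was 0.267 over 12372 pairs in the ordered stretch and 0.010 over 1583 pairs in the unordered. Grouped by its own activity, a sequence of the ordered stretch between -0.5 and 0 was followed by a sequence with a median of -0.31, of which 0.726% were active. A sequence between 0.5 and 1 was followed by a median of 0.23, with 7.18% active. For a sequence between 1 and 1.5 the next median was 0.57 and 22.2% were active, and at 2 or more it was 1.24 with 48.9% of 45 active. The level of the next number rose at each step of this scale, and 4 numbers on it was back between -0.34 and -0.25 for every group. In the unordered stretch the next median ran from -0.22 for the lowest group to -0.16 for sequences between 1 and 1.5, was 0.05 after the 45 sequences between 1.5 and 2, and was -0.33 after the 14 at 2 or more. The share of next sequences active there was 2.97%, 4.65%, 6.67% and 7.14% for these groups in order.

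Around the 393 active sequences of the ordered stretch, the median activity fell to near that of the stretch within 3 numbers on either side. The active sequences had a median of 1.45 (quartiles 1.26 and 1.69). The number before had 0.86 and the number after 0.79. At distance 2 the medians were 0.02 before and -0.03 after, and at distance 3 they were -0.23 on both sides, against -0.29 for the whole stretch. Of the numbers just before, 124 of 384 (32.3%) were themselves active, which fell to 11.6% at distance 2, 5.47% at distance 3, 3.92% at distance 4, 2.88% at distance 5 and 2.60% at distance 8, against 2.05% for the whole stretch. In the unordered stretch the numbers next to an active sequence had medians of -0.19 and -0.15. Of these, 8 of 122 (6.56%) and 8 of 124 (6.45%) were active, against 3.44% for that whole stretch, a small excess on few sequences.

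Active sequences came in short runs. A run is a set of consecutive active numbers, and the 595 active sequences formed 449 runs. In 343 the run was 1 number long, in 81 it was 2, in 18 it was 3 and in 4 it was 4. Single runs of 5, 7 and 8 numbers were the only longer ones. All 18 runs of 3 and all longer ones lay in the ordered stretch, where 208 of 393 active sequences were in runs of 2 or more. The unordered stretch had 111 runs of 1 and 8 runs of 2. Called in each replicate on its own, the longest run over the range had 7, 5 and 7 numbers.

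An active sequence is called isolated where both neighbours were analysed and neither was active. In the ordered stretch 171 of 374 active sequences with analysed neighbours were isolated (45.7%), and in the unordered stretch 103 of 119 (86.6%). The order of these shares was kept with calls of at least 4-fold (66.7% of 30 and 83.3% of 12), with calls in either orientation (40.4% and 76.6%) and with scaling by library totals (57.0% and 94.3%). The stretches were drawn after these activities had been seen, so their runs and shares describe them and support nothing. Over the whole range 315 of 560 were isolated (56.3%). Isolated and grouped sequences of the ordered stretch had similar levels, with medians of 1.38 and 1.52.

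Isolation by the call did not mean silence on both sides. Of the 171 isolated sequences of the ordered stretch, the higher neighbour had a median of 0.80 and the lower neighbour of -0.14. In 33 both neighbours were at 0.5 or more, in 87 a single neighbour was, and in 51 none. In 82 a neighbour was active in a single orientation. Only 12 (7.02%) had both neighbours below 0. The 103 isolated sequences of the unordered stretch had a median of 1.45, yet their higher neighbour had a median of 0.11 and 40 of them (38.8%) had both neighbours below 0.

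The highest isolated sequences were among the strongest of the range. CPM are scaled by library totals, so their ratio lies 0.43 (log2) below the fitted log2 RNA/DNA. Seq_32966, in the unordered stretch, had DNA at 12.7, 13.5 and 17.7 CPM and RNA at 118, 113 and 111 CPM in its forward copy. Its reverse copy had DNA at 14.7, 14.1 and 18.4 CPM and RNA at 116, 125 and 116 CPM. RNA was far above DNA in all 3 replicates of both copies, and the log2 RNA/DNA was 3.40 (SE 0.11) for the forward and 3.35 (SE 0.10) for the reverse copy. Its neighbours Seq_32965 and Seq_32967 were at 0.59 and 0.22.

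Seq_49448, in the ordered stretch, had a mean activity of 2.97 while Seq_49447 stood at -0.16 and Seq_49449 at -0.42. Its forward copy had DNA at 3.21, 3.09 and 5.02 CPM and RNA at 25.3, 19.7 and 27.2 CPM, and its reverse copy had DNA at 10.0, 9.24 and 11.0 CPM and RNA at 57.5, 48.5 and 52.5 CPM. Both orientations were thus high and both neighbours low. Seq_35412 had an activity of 2.93 between neighbours at -0.20 and -0.31, Seq_32854 an activity of 2.79 between 0.45 and -0.41, and Seq_48386 an activity of 2.78 between -0.01 and -0.55. The neighbours of these 5 lay between -0.55 and 0.59, against a median of -0.28 for the range.

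The longest run, Seq_45568 to Seq_45575, was long and level. Its 8 sequences had activities between 1.37 and 1.89 with a mean of 1.58, and Seq_45567 just before it had 0.93. Seq_45568 had forward DNA at 6.80, 6.41 and 7.43 CPM and RNA at 15.0, 16.4 and 15.5 CPM, and Seq_45575, the last, had forward DNA at 5.06, 5.98 and 5.16 CPM and RNA at 14.8, 16.9 and 14.6 CPM. Forward values of the 8 in order were 1.61, 1.59, 1.49, 1.57, 1.71, 1.50, 1.20 and 1.95. Reverse values were 1.39, 1.14, 1.57, 1.64, 1.82, 1.55, 1.65 and 1.84. Their standard errors ran from 0.080 to 0.206, and differences between neighbours in this list were not tested. The run's end is not seen, as the numbers 45576 and 45577 were not listed and Seq_45578 was analysed only forward.

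The run from Seq_53994 to Seq_54000 held the strongest sequences of the range and was uneven. Its first 4 sequences lay between 1.46 and 1.58, Seq_53998 and Seq_53999 reached 4.07 and 4.05, and Seq_54000 had 3.35. Seq_53993 before it was at -0.04. Seq_53997 had reverse DNA at 9.74, 10.4 and 9.21 CPM and RNA at 20.8, 22.1 and 21.2 CPM. The reverse copy of Seq_53998, the next number, had DNA at 5.56, 7.61 and 10.3 CPM and RNA at 106, 114 and 118 CPM. Their log2 RNA/DNA was 1.56 (SE 0.08) and 4.29 (SE 0.14), so the run rose by a large step inside itself.

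The run from Seq_53141 to Seq_53145 was highest at Seq_53144. Activities in order were 1.48, 1.33, 2.05, 2.35 and 1.72, with 0.36 before and -0.47 after. Seq_53144 had forward DNA at 5.11, 5.52 and 4.70 CPM and RNA at 20.2, 19.9 and 20.6 CPM, or 2.41 (SE 0.09) on the log2 scale. The 4 runs of 4 numbers started at Seq_46259, Seq_49793, Seq_50577 and Seq_52566, with mean activities of 1.63, 1.28, 3.0 and 1.37. They are named because they came next in length, after their values had been seen.

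The 5 highest copies all lay in 2 of these runs. They were Seq_54000 reverse at 4.47 (SE 0.41), Seq_50577 forward at 4.31 (SE 0.26), Seq_53998 reverse at 4.29, Seq_53999 reverse at 4.16 (SE 0.27) and Seq_50578 forward at 4.02 (SE 0.17). Seq_54000 reverse had DNA at 2.15, 2.23 and 6.40 CPM and RNA at 61.3, 56.9 and 56.2 CPM. Seq_50577 forward had DNA at 18.1, 18.3 and 37.7 CPM and RNA at 370, 359 and 355 CPM. RNA was steady across replicates while DNA replicate 3 stood well above the other two. Without DNA replicate 3 the 5 values were 5.16, 4.74, 4.53, 4.58 and 4.33.

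This held for strong copies in general. DNA replicate 3 was the highest DNA library for 20 of the 21 copies at a log2 RNA/DNA of 3 or more, for 65.6% of the 163 between 2 and 3, and for 44.2% of the 1893 between 1 and 2. Among the 34564 copies below 0 it was the highest for 30.5%. Over the mean of the other DNA libraries, each raised by 1 CPM, it was higher by a median of 0.41 (log2) in the 21 and lower by 0.02 in those below 0. What this does to the fold changes was not tested beyond leaving the library out, which left 2115 copies called at least 2-fold higher and 602 active sequences.

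Both orientations were at least 8-fold higher in 6 of 24053 sequences (0.0249%): Seq_32966, Seq_47509, Seq_50578, Seq_52630, Seq_53998 and Seq_53999. They are given after their values had been seen. At the other end, 2 sequences (0.00831%) were at least 2-fold lower in both orientations. They were Seq_31481 at -1.16 with 57 and 44 barcodes and Seq_32427 at -1.15 with 4 and 4 barcodes, and neither had a neighbour below -0.40. The library's shares of both kinds were not counted, so these counts do not place the range against the library.

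The largest steps between adjacent numbers were all between a sequence of negative mean activity and a strong one. From Seq_50576 to Seq_50577 activity went from -0.41 to 3.53, from Seq_37014 to Seq_37015 from -0.49 to 2.95, and from Seq_47508 to Seq_47509 from -0.16 to 3.26. Seq_47508 had only 5 forward and 7 reverse barcodes. Its copies differed, at 0.50 forward and -0.83 reverse (difference 1.33, SE 0.51, edgeR adjusted p = 0.039). Downward steps were as large, with Seq_49448 at 2.97 before Seq_49449 at -0.42, and Seq_52630 at 3.17 before Seq_52631 at -0.21. Seq_37014 had forward DNA at 2.82, 2.95 and 1.98 CPM and RNA at 1.54, 1.38 and 1.25 CPM, and Seq_37015 had forward DNA at 20.9, 19.0 and 23.8 CPM and RNA at 124, 123 and 119 CPM. Every RNA value of the latter lay above its DNA values, and every RNA value of the former below. All 5 steps fall in the ordered stretch, which held 19160 of the 24053 sequences analysed in both orientations. It thus had sharp edges beside its smooth runs, but such edges were not particular to it. In the unordered stretch Seq_35412 at 2.93 was followed by Seq_35413 at -0.31.

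The lowest called copies were rare ones. Seq_48153 forward was at -1.94 (SE 0.42) with 14 barcodes, with DNA at 0.949, 0.830 and 0.602 CPM and RNA at 0.122, 0.191 and 0.148 CPM. Seq_44923 reverse (-1.86), Seq_44867 reverse (-1.69), Seq_47527 reverse (-1.68) and Seq_50472 forward (-1.68) had 1, 2, 6 and 1 barcodes. Their partners in the other orientation were at -0.95 for Seq_48153_rev, -0.34 for Seq_44923_fwd, 0.12 for Seq_44867_fwd, -0.08 for Seq_47527_fwd and -0.59 for Seq_50472_rev. Among the 312 copies at least 2-fold lower, 71 were forward and 241 reverse. The quiet stretch from 31301 to 32200 held 24 of them (1.42% of its copies), beside 0.622% in the ordered and 0.646% in the unordered stretch.

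The orientation difference, which played no part in choosing the range, was tested in edgeR as an interaction over all sequences with both copies. The forward copy was called higher for 6265 members (26.0%, library 24.7%) and the reverse for 1293 (5.38%, library 7.68%). The median difference, forward minus reverse, was 0.22 in the range and 0.18 in the library. Per replicate the range's median was 0.184 ± 0.014 (SD, n = 3). At least 2-fold apart were 545 forward (2.27%, library 2.24%) and 130 reverse (0.54%, library 0.662%). Leaving out any replicate lowered the forward count to between 3977 and 4123, and the reverse count to between 779 and 905.

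Some sequences worked in a single direction. In 116 (0.482%, library 0.711%) the forward copy was active, the reverse was not called higher and the interaction was called. In 58 (0.241%, library 0.298%) the same held with the orientations exchanged. Seq_45325 showed the largest reverse excess. Its forward copy had DNA at 4.09, 4.41 and 3.96 CPM and RNA at 2.87, 3.31 and 2.95 CPM, whereas its reverse copy had DNA at 11.2, 10.9 and 11.6 CPM and RNA at 48.5, 47.3 and 38.9 CPM. By these CPM, scaled by library totals, forward RNA lay below DNA and reverse RNA above it in every replicate. The fitted log2 RNA/DNA was -0.02 forward, near the centre of the library, and 2.42 reverse. The difference was -2.44 (SE 0.14, edgeR adjusted p = 1.6e-16). Its neighbours Seq_45324 and Seq_45326 had mean activities of -0.02 and -0.72. In Seq_45324 the reverse copy was also called higher, at 0.38 against -0.42 forward (difference -0.79, SE 0.22, edgeR adjusted p = 0.0057). In Seq_45326 the difference of 0.21 was not called.

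Seq_54000 came next at -2.25 (SE 0.49, edgeR adjusted p = 0.0076), and -2.83 without DNA replicate 3. Its forward copy was itself active, with DNA at 2.51, 3.12 and 3.47 CPM and RNA at 8.96, 10.2 and 12 CPM. Seq_54495 followed at -2.12 (SE 0.27, edgeR adjusted p = 9.0e-08), with a reverse log2 RNA/DNA of 2.31 and a forward one of 0.18. The sequence after Seq_54000, Seq_54001, continued the pattern: its reverse copy was at 2.20 and its forward copy at 0.27, a difference of -1.93 (SE 0.13, edgeR adjusted p = 2.4e-14). It is named after its values had been seen.

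The largest forward excess was that of Seq_54428 at 2.10 (SE 0.29, edgeR adjusted p = 4.4e-07), which had only 16 forward and 19 reverse barcodes. Seq_45336 was at 2.06 (SE 0.14, edgeR adjusted p = 3.5e-15). Its forward copy had DNA at 10.3, 8.10 and 10.6 CPM and RNA at 21.2, 19.9 and 20.6 CPM, and its reverse copy had DNA at 15.3, 15.2 and 12.9 CPM and RNA at 7.45, 7.95 and 6.67 CPM. Seq_41247 was at 1.92 (SE 0.15, edgeR adjusted p = 9.9e-13), with forward values of 1.16, 0.98, 0.71 and 0.36 from Seq_41247 to Seq_41250 and reverse values of -0.77, -0.48, -0.18 and 0.65. Over those 4 numbers the forward copy fell and the reverse copy rose. In each of these 6 sequences the difference had the same sign in 3 of 3 replicates.

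Some runs showed such an exchange along the numbers and others did not. In the run from Seq_50577 to Seq_50580 the forward copies were at 4.31, 4.02, 2.78 and 1.52 and the reverse copies at 2.75, 3.55, 2.84 and 2.26. The forward copy led at the first number by 1.55 (SE 0.29, edgeR adjusted p = 0.00062), and the reverse copy at the last by 0.74 (difference -0.74, SE 0.13, edgeR adjusted p = 2.2e-05). The 2 numbers between had differences of 0.47 (SE 0.21) and -0.06 (SE 0.13) that missed the threshold. In the run of 3 from Seq_37015, differences ran from 0.00 over 0.28 to -0.39. In none of the 3 longest runs did the forward copy lead at the first number and the reverse copy at the last. All 7 differences from Seq_53994 to Seq_54000 were negative, starting at -0.24 and ending at -2.25. From Seq_53141 to Seq_53145 they started at -0.20 and ended at -0.04. From Seq_45568 to Seq_45575 they started at 0.22 and ended at 0.12, with part of an exchange between. There Seq_45569 was at 0.45 and called forward. Seq_45570 to Seq_45574 were all negative, and Seq_45574, at -0.45, was called reverse.

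Over the 18 runs of 3 numbers, the first sequence had a median difference of 0.40, with the forward copy called higher in 10 and the reverse in 0. The middle one had 0.12, with 2 forward and 1 reverse, and the last had -0.35, with 1 forward and 10 reverse. Per replicate the medians were 0.31 ± 0.08 for the first, 0.10 ± 0.05 for the middle and -0.35 ± 0.08 for the last (SD, n = 3), so first and last differed by more than the spread between replicates. In the 59 runs of 2 within the ordered stretch the same order was smaller. It was 0.12 for the first, with 11 forward and 4 reverse, and -0.11 for the last, with 3 forward and 15 reverse. Per replicate these were 0.06 ± 0.05 and -0.15 ± 0.06 (SD, n = 3). The whole ordered stretch had a median difference of 0.22, with 26.0% called forward and 5.05% reverse. Against that, the first of runs of 2 was less often called forward (18.6%), and the last more often called reverse (25.4%). Sequences just outside runs of any length in that stretch followed suit. Of the 260 numbers before a run, 37.3% were called higher forward and 5.38% reverse, and of the 258 after a run 13.2% and 26.7%.

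The same direction appeared without calling any sequence active. In the ordered stretch the forward value of N and the reverse value of N + 1 correlated at 0.451, whereas the reverse value of N and the forward value of N + 1 correlated at 0.301. At distance 2 the correlations were 0.280 and 0.111, and at distance 3 they were 0.126 and 0.031. Per replicate at distance 2 they were 0.257 ± 0.009 and 0.105 ± 0.004 (SD, n = 3), so their gap was larger than the spread between replicates. In the unordered stretch the values at distance 2 were 0.052 and 0.029. Both stretches were drawn after the activities had been seen, so this contrast describes them and supports nothing.

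Split by the slope of the neighbours, the orientation calls moved with it. In the ordered stretch 2235 sequences had a next number at least 0.5 (log2) more active than the previous one, and among these 34.0% were called higher forward and 3.85% reverse. Where the previous number was the more active by as much, in 2256 sequences, 18.1% were called forward and 13.9% reverse. The 13712 sequences between these had 26.3% and 3.73%. Median differences per replicate were 0.242 ± 0.013, 0.058 ± 0.013 and 0.196 ± 0.015 (SD, n = 3) in that order. The forward copy was higher in the median of all 3 sets, and least so where the previous number was the more active. In the unordered stretch the shares were 28.6% and 6.94%, 30.0% and 8.63%, and 27.4% and 6.39%, and the medians per replicate 0.181 ± 0.022, 0.190 ± 0.018 and 0.198 ± 0.013, which overlap.

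Barcode numbers, which the choice of the range did not use, were ordered in the same place. In the ordered stretch the log2 number of barcodes of N correlated with that of N + 1 at 0.427, and at distances 2, 3 and 4 the values were 0.247, 0.120 and 0.051. In the unordered stretch the value at distance 1 was 0.046. DNA abundance behaved alike, with 0.384 and 0.023 at distance 1. Barcode number did not track activity, with r = 0.019 in the ordered stretch. The correlation of activity at distance 1 was 0.474 among neighbours whose copy with fewer barcodes had under 50, and 0.573 among those where it had 100 or more. Numbers missing from the tables clustered too: of 289 unlisted numbers in the ordered stretch (1.45%), 51 (17.6%) were followed by another, while 1 of the 42 in the unordered stretch (1.11% of numbers) was.

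Activity was spread thinly along the ordered stretch. In blocks of 1000 numbers 0.932% to 3.63% of sequences were active, with block medians between -0.33 and -0.24. The longest gap without an active sequence ran over 355 numbers, from 37301 to 37655, in which 342 were analysed in both orientations. The median gap between its runs was 48.5 numbers.

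The ends of the range were unlike. At the lower end Seq_30998 to Seq_31000 had activities of -0.54, -0.42 and 0.12 and Seq_31001 to Seq_31003 had 0.33, -0.49 and 0.13, a mixed set on either side. At the upper end Seq_55998 to Seq_56000 had -0.52, -0.45 and -0.41 and Seq_56001 to Seq_56003 had -0.37, 0.07 and -0.06. Seq_56000 forward had DNA at 5.78, 5.72 and 6.20 CPM and RNA at 3.95, 3.58 and 3.45 CPM, and Seq_56001 forward had DNA at 9.69, 7.50 and 9.58 CPM and RNA at 5.26, 6.34 and 5.02 CPM. By these CPM RNA lay below DNA in every replicate of both, on a scale of library totals where the members' median log2 RNA/DNA was -0.69. Neither end showed a step at the boundary number itself.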

How the data were processed

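Barcode RNA and DNA of a lentiviral reporter library in HepG2 cells were analysed in 3 replicates each, and a plasmid library gave the barcodes of each copy. Each library has a deposited table of raw counts for every copy, as its header names them. A table by the authors pools the replicates into CPM, their ratio and the log2 of that ratio. Of it, only the log2 signal was used, for a median. BWA 0.7.17 and hg38 appear without a role in the submitters' processing notes, and what was counted, reads or molecular identifiers, is not stated in the labels. No base sequences, coordinates or cell markers of the elements were used here. The labels do not say whether replicates were separate infections, so errors and p-values cover only the spread among these libraries, possibly a technical one.

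Activity was fitted with edgeR 4.0.16 (R 4.3.3): quasi-likelihood, TMM, robust dispersion, RNA against DNA over all 134435 copies that passed the DNA minimum of 10 counts, with Benjamini-Hochberg adjustment over all of them. A call is an adjusted p under 0.05. The orientation difference is the interaction of molecule and orientation over 66769 sequences. Values per replicate are a log2 ratio of RNA to DNA in libraries sharing a number, from TMM-scaled CPM raised by 1, and understate changes of rare copies. Correlations across sequences carry no p, as sequences share libraries and are not independent. The fits were tested on simulated data.

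The members, stretches and lists were chosen with earlier results of these data known. Named were the 5 highest and 5 lowest called copies, 3 sequences on each side of each end, the 3 longest runs, the 5 highest isolated sequences, the 3 largest called differences each way and the 5 largest steps. Others are said to be named after their values were seen. Alternatives were other scalings, DESeq2 1.42.0, limma 3.58.1, other DNA minimums, left-out replicates, a replicate block and other definitions of active and run. RNA and DNA libraries of the same number deviated together with correlations of 0.040, 0.053 and 0.061, too small to pair them.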

Additional observations from a re-analysis of the deposited data

Results flagged for a closer look

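The orientation differences with the largest size in each direction are listed here because forward and reverse copies of a sequence differed by a test of the difference itself, the interaction in edgeR. Forward minus reverse log2 RNA/DNA was -2.44 for Seq_45325, -2.25 for Seq_54000, -2.12 for Seq_54495, 1.92 for Seq_41247, 2.06 for Seq_45336 and 2.10 for Seq_54428. Each kept its sign and its call under every alternative that gave a value. Seq_54428 and Seq_54495 rest on 16 to 24 barcodes a copy. For Seq_54000 the adjusted p in edgeR rose to 0.049 without replicate 1 and without replicate 2.

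Signal also appeared in copies that no comparison used. In the range 57 copies had 0 counts in all 3 DNA libraries, and 42 of these had RNA counts. A DNA count of 0 allows up to 3 counts, which at the depth of the RNA libraries corresponds to 8.76 RNA counts. RNA exceeded this in 18 copies, with a highest sum of 28 and a median over the 57 of 3. Of the 57 copies, 46 had a single barcode.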

How the results depend on the processing

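Counts of calls moved with the scaling and with the definition of active. By library totals alone, 807 copies were at least 2-fold higher, 9507 at least 2-fold lower and 197 sequences active, of which 68.0% were isolated, with a longest run of 4. The forward copy of Seq_31000 then changed sign, to -0.089. In limma 13 copies were at least 2-fold lower and 60.0% of active sequences isolated. With calls in either orientation 1468 sequences were active and 49.9% isolated, with at least 4-fold 54 and 75% with a longest run of 3, and with runs bridging 1 number 50.1% were isolated. In the ordered stretch alone these were 393 and 45.7%, and the correlation at distance 1 was 0.509. That correlation was 0.428 with at least 50 DNA counts, 0.417 with at least 1, 0.416 without DNA replicate 3, 0.374 for forward with the next reverse, 0.385 as Spearman's rho and 0.395 between different replicates. Leaving out a replicate gave 1986 to 2138 copies higher, 451 to 715 lower, 3977 to 4123 sequences higher forward, 779 to 905 higher reverse, 556 to 601 active, 57.5% to 58.2% isolated, longest runs of 7 to 8 and correlations of 0.411 to 0.413. With a replicate block the counts were 2082 copies higher, 312 lower and 601 active sequences, and the count of no call moved by over 1.5 times. The gap between the forward-first and reverse-first correlations at distance 2, 0.127 over the whole range, was 0.084 with ranks and 0.116 without replicate 1. For 132 named values 1407 of 1431 alternatives kept direction and call. RLE factors and DESeq2 moved no count by over 1.5 times. Copies with few barcodes, among them the 5 lowest, have the least certain values.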
